A study of Rattus norvegicus with 28 samples.

Results

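Transcript levels of 9 genes of the endoplasmic reticulum folding machinery were followed in the terminal ileum of newborn rats. The genes were chosen by symbol: every probe set whose platform annotation gave Hspa5, Hsp90b1, Calr, Canx, Pdia3, Pdia4, P4hb, Hyou1 or Ddit3 as its gene was taken. All 9 were on the array, of 4736 genes with a single symbol, through 23 of 8740 non-control probe sets. Of these, 22 probe sets lay above the intensity filter, and each gene had at least 1 among them. The data come from a rat model of necrotizing enterocolitis, which inflames and destroys bowel in preterm infants. Pups of the formula and hypoxia groups received formula in place of milk together with hypoxic stress 3 times a day and were killed on day 1, 2, 3 or 4 of life, with 3 arrays a day. Breast-fed pups were killed on the same days, again with 3 arrays a day, and 4 arrays came from unfed newborns, counted here as day 0. Each of the 28 Affymetrix arrays held total RNA of 1 pup. No group had formula or hypoxia alone, so the effects of the 2 cannot be told apart, and litters are not given in the labels, so p-values measure the spread between pups only.

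Secreted and membrane proteins fold inside the endoplasmic reticulum with the help of chaperones, which hold unfolded chains, and of disulfide isomerases, which form and rearrange disulfide bonds. When unfolded proteins build up, the sensors Ire1, Perk and Atf6 start the unfolded protein response, and transcription factors including Xbp1, Atf6 and Atf4 raise the chaperone genes. Cells that secrete heavily, such as goblet and Paneth cells of the gut, depend on this machinery. Ddit3 is no chaperone: it encodes CHOP, a transcription factor that this response induces and that is known for its part in stress-related cell death.

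Values are normalised array intensities. They carry no absolute scale, so levels of different probe sets are not set against each other. Fold changes were taken on the scale log2(intensity + 8), tests were two-sided limma tests across 3185 genes with Benjamini-Hochberg adjustment, and a gene was called at an adjusted p under 0.05. A pair of breast-fed arrays lacked signal for many abundant probe sets (more than 16-fold below the median of the other arrays): 69 of 754 in day 3 replicate 3 and 48 of 757 in day 4 replicate 2, against 0 to 2 in the other 26 arrays. Several members were hit: Pdia3 and Hyou1 read 8.27 and 1.17 in breast-fed day 3 replicate 3, and Canx read 9.24 in breast-fed day 4 replicate 2. One further main probe set fell as far below its median outside these arrays: Ddit3 read 4.54 in formula and hypoxia day 1 replicate 3. Results that rest on these 2 arrays are therefore given with and without them. The samples were registered in 2 separate accession runs of 19 and 9 arrays, the second holding 1 formula and hypoxia array (day 4), 5 breast-fed arrays (1 each of days 1 and 3 and all 3 of day 4) and 3 unfed arrays. The labels do not say whether the runs were processed apart. The labelled tissue was checked against its markers. All 10 enterocyte markers on the array lay above the filter, among them Fabp6, the ileal bile acid binding protein, with a mean intensity of 970, and Slc10a2, the ileal bile acid transporter, with a mean of 36.7.

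Promoter sequences were searched for exact copies of elements that the unfolded protein response is known to use. The part of these elements in the changes described below was not tested. The 250 bases before each annotated start were taken from RefSeq (GRCr8) for 8 of the 9 genes. Hyou1 has 2 annotated starts: its matches and distances refer to the upstream one, and the window of the other held no match. No promoter is shown for Pdia3. Both strands were searched for the endoplasmic reticulum stress element ERSE (CCAAT and CCACG with any 9 bases between them), for ERSE-II (ATTGG and CCACG with any 1 base between them) and for the UPRE core (TGACGTGG). ERSE was found before 4 of the 8 genes, Hspa5, Hsp90b1, Calr and Canx, with 2 copies in Hsp90b1, against 22 of 33469 rat promoters (0.0657%). ERSE-II was found only before Hyou1 among the 8 genes, in 2 copies, against 0.0418% of all promoters. The UPRE core was likewise found in Hyou1 alone, against 0.52% of all promoters, and there it overlaps the farther ERSE-II copy. The promoters of Pdia4, P4hb and Ddit3 held no exact match in this window. Only exact matches of the fixed letters were searched for, so copies with a changed letter are neither listed nor marked. The elements follow with 12 bases on either side, each read 5′ to 3′ along the strand that carries the motif, with the fixed motif letters in capitals.
Hspa5 ERSE, 43 to 25 bases before the start: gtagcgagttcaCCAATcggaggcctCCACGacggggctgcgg
Hsp90b1 ERSE, 176 to 158 bases before the start: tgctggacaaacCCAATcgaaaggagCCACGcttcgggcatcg
Hsp90b1 ERSE, 72 to 54 bases before the start: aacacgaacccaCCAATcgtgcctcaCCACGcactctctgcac
Calr ERSE, 232 to 214 bases before the start: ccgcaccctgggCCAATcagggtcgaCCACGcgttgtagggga
Canx ERSE, 230 to 212 bases before the start: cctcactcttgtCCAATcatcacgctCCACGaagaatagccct
Hyou1 ERSE-II, 188 to 178 bases before the start: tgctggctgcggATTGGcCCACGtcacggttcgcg
Hyou1 ERSE-II, 88 to 78 bases before the start: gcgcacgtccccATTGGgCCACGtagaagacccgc
Hyou1 UPRE core, 191 to 184 bases before the start: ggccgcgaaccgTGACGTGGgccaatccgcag
In GRCr8 the Hspa5 element lies at chr3:38452961-38453003 (plus strand), those of Hsp90b1 at chr7:23012439-23012481 (minus strand) and chr7:23012335-23012377 (plus strand), that of Calr at chr19:40213123-40213165 (minus strand) and that of Canx at chr10:35158057-35158099 (minus strand). The Hyou1 elements lie at chr8:53602682-53602716 (minus strand) and chr8:53602782-53602816 (minus strand), and its UPRE core at chr8:53602679-53602710 (plus strand).

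**Figure D1:**
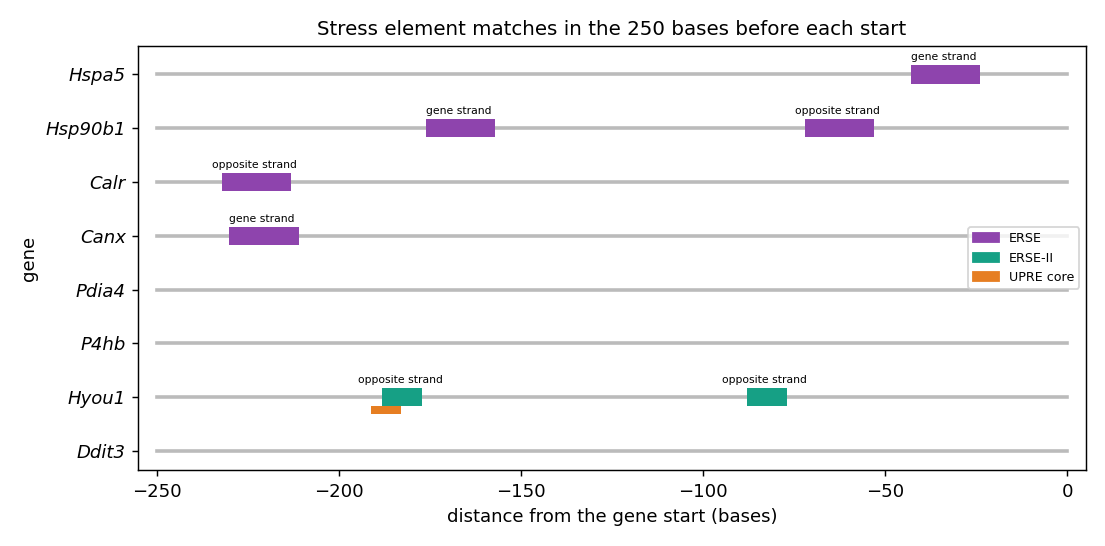
Positions of the element matches in the 250 bases before the annotated start of 8 member genes (horizontal axis, distance from the start in bases); bars are coloured by element and labelled by the strand that carries them. Hspa5 has 1 exact ERSE match, close to its start, Hsp90b1 has 2, and Calr and Canx have 1 each at the far end of the window. Hyou1, shown for the upstream of its 2 annotated starts, has 2 exact matches of ERSE-II.

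The whole window is printed for Hspa5, the member with the clearest change, and for P4hb, whose values ran the other way. Capitals in the Hspa5 sequence mark the fixed letters of its exact ERSE match, and the P4hb sequence has none.
Hspa5 promoter, chr3:38452766-38453015, plus strand: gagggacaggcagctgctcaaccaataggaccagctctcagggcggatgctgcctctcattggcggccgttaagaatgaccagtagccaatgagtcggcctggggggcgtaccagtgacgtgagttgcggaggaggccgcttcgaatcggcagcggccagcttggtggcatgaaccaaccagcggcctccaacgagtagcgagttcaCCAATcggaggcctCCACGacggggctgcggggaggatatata
P4hb promoter, chr10:106346912-106347161, minus strand: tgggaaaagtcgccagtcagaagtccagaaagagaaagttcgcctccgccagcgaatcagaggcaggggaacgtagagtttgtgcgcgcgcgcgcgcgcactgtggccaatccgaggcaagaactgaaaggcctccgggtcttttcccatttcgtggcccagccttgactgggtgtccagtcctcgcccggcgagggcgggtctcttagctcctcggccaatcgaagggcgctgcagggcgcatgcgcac

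Hspa5 encodes BiP (GRP78), the Hsp70-class chaperone of the endoplasmic reticulum, which also binds the sensors of the unfolded protein response. It was the member whose main probe set (M14050_s_at, the one with the highest mean) fell under formula and hypoxia. On day 1 its intensity was 262, 540 and 298 in formula and hypoxia pups, against 840, 526 and 660 in breast-fed pups. On day 2 it was 486, 203 and 175 under formula and hypoxia, against 660, 454 and 790 with breast feeding. The first 2 days thus had mostly lower values under formula and hypoxia, with 1 pup a day inside the breast-fed range. Day 3 gave 537, 911 and 442 under formula and hypoxia, against 1860, 945 and 314 in breast-fed pups. Day 4 gave 840, 503 and 609 under formula and hypoxia, against 930, 1990 and 1840 in breast-fed pups. The regimens overlapped widely on day 3, and on day 4 every formula and hypoxia pup lay below every breast-fed pup, as for 12.8% of genes. Unfed newborns had 318, 609, 675 and 689. Over days 1 to 4 the mean was 484 ± 232 under formula and hypoxia and 983 ± 581 with breast feeding (SD, n = 12 each).

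Averaged over the 4 days, Hspa5 was 1.94-fold lower under formula and hypoxia (95% confidence interval 1.37 to 2.75; log2 change -0.95 ± 0.25 SE, limma adjusted p = 0.0122). In all, 11 of 12 pups lay below the breast-fed mean of their day. At least 11 did so for 7% of genes. Hspa5 was the only 1 of the 9 members called, while 11.4% of all genes tested were called for this comparison and 6.75% were called lower. No single day was called for this probe set: the daily log2 changes were -0.91, -1.23, -0.45 and -1.23 for days 1 to 4, with adjusted p-values from 0.208 to 0.692. Without the 2 arrays with lost probe sets the change was -1.07 (adjusted p = 0.00189). In the first accession run alone, days 1 to 3, it was -1.14 (adjusted p = 0.0118). The second run gives only day 4, at -1.27, a single formula and hypoxia array that has no spread of its own and is no separate test. Ordered by mean level, Hspa5 was lowest under formula and hypoxia on day 2 (288 ± 172) and day 1 (367 ± 151), followed by unfed newborns (573 ± 173). The middle of the order held formula and hypoxia day 3 (630 ± 248), breast-fed day 2 (635 ± 169), formula and hypoxia day 4 (651 ± 172) and breast-fed day 1 (675 ± 157). Breast-fed pups of day 3 (1040 ± 776) and day 4 (1580 ± 572) were highest, and each group's range overlapped that of its neighbour in this order.

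**Figure D2:**
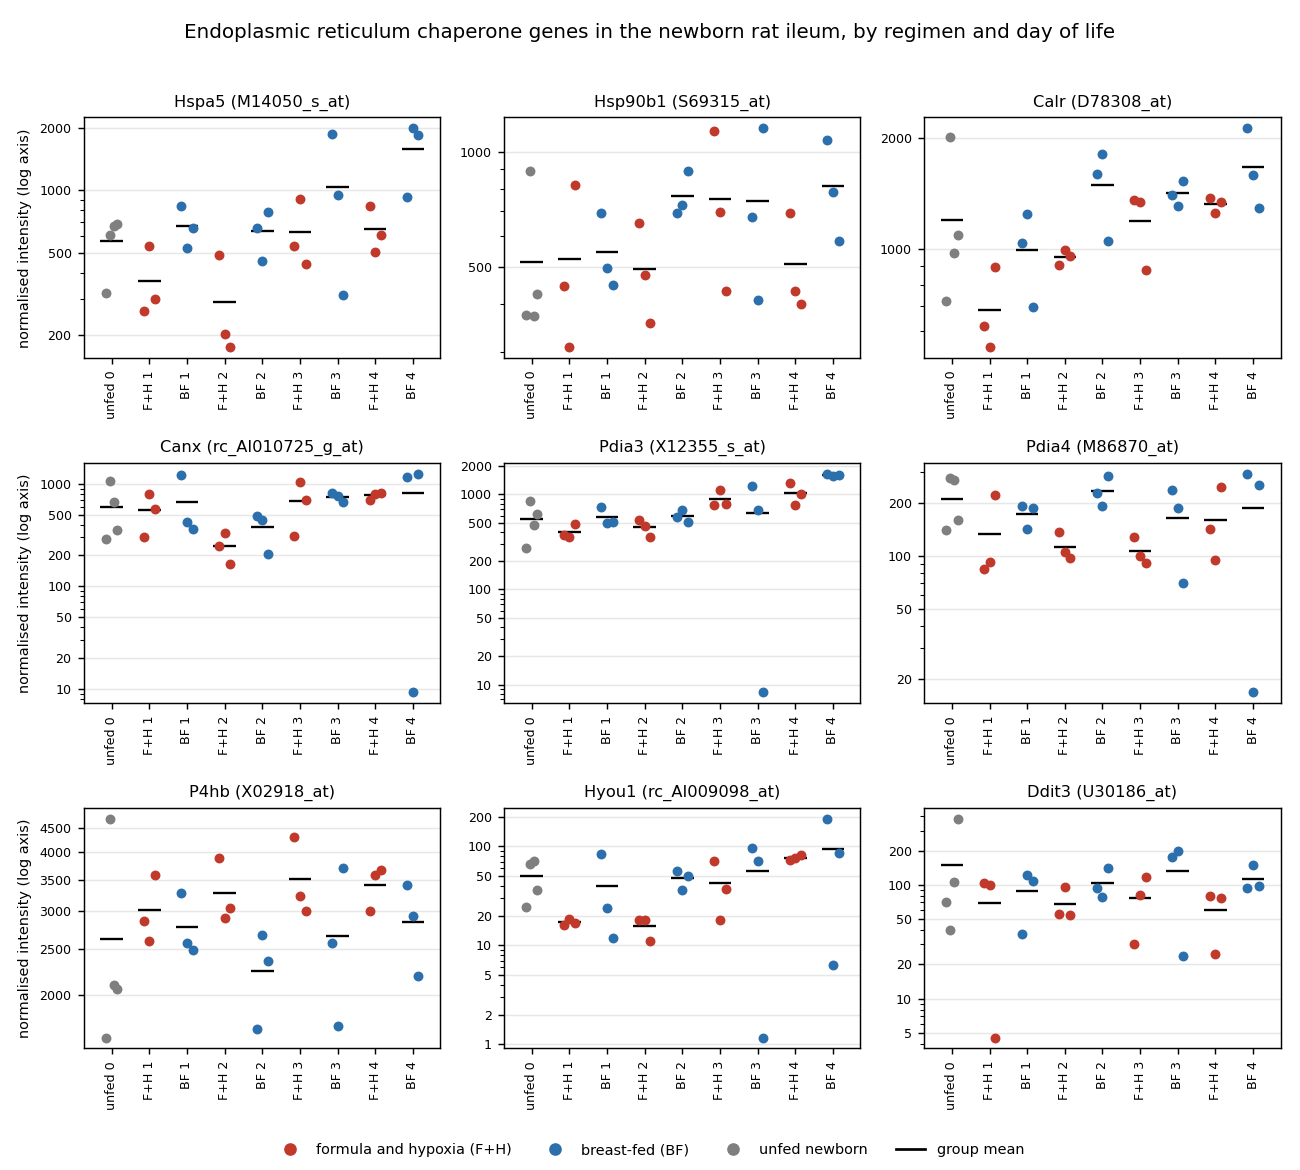
Normalised intensity (log axis) of the main probe set of each member in each of the 28 arrays, by group, with unfed newborns on the left and formula and hypoxia (F+H) left of breast-fed (BF) on each day; points are pups and black lines group means. Hspa5 points under formula and hypoxia lie mostly below the breast-fed points of the day, P4hb points mostly above, and single points near the bottom of the Canx, Pdia3, Pdia4 and Hyou1 panels belong to the 2 breast-fed arrays with lost probe sets.

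A further Hspa5 probe set, S63521_i_at, separated the regimens completely on each day. Its intensity on day 1 was 32.6, 61.7 and 28.7 under formula and hypoxia, against 333, 107 and 165 in breast-fed pups. Day 2 gave 18.6, 14.8 and 13.3 under formula and hypoxia, against 113, 61.0 and 82.2 with breast feeding. All formula and hypoxia values of these days were below all breast-fed values. Those of formula and hypoxia day 2 were also under 24, the intensity that the filter set for the mean of a probe set. On day 3 the values were 33.3, 93.5 and 45.8 under formula and hypoxia, against 357, 230 and 320 in breast-fed pups. On day 4 they were 59.3, 64.4 and 82.1 under formula and hypoxia, against 343, 555 and 405 in breast-fed pups. Separation in this direction on all 4 days occurred in 0.458% of the 5244 probe sets above the filter. Unfed newborns had 89.9, 285, 377 and 195, which overlaps the breast-fed range and lies above the formula and hypoxia range of day 1. With every probe set tested on its own, this one was 4.60-fold lower under formula and hypoxia over the 4 days (3.40 to 6.23; log2 change -2.20 ± 0.21, adjusted p = 1.93e-07). It was the 6th most negative of the 5244. Its daily changes were -2.01, -1.96, -2.33 and -2.51 (adjusted p = 0.0498, 0.0166, 0.00384 and 0.0015), the only ones of the 22 member probe sets called on day 1, day 3 and day 4. The change was -2.14 without the 2 arrays with lost probe sets (adjusted p = 9.88e-07) and -2.17 in the first accession run alone (adjusted p = 1.65e-05). The last Hspa5 probe set, S63521_r_at, lay below the filter and was not tested, with 4.77 ± 2.44 under formula and hypoxia and 12.7 ± 11.1 with breast feeding (SD, n = 12 each). Both tested Hspa5 probe sets fell, while the size of the change was not the same. The platform annotation does not say which part of the transcript each one reads.

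Hsp90b1 encodes GRP94, the Hsp90-class chaperone of the same compartment. Its main probe set, S69315_at, did not pass the test: 570 ± 237 under formula and hypoxia and 718 ± 230 with breast feeding (SD, n = 12 each), with a log2 change of -0.36 ± 0.21 (95% interval -0.79 to 0.07, adjusted p = 0.275). A further probe set, S69316_s_at, fell. On day 2 it read 151, 87.9 and 88.6 under formula and hypoxia, against 313, 406 and 299 in breast-fed pups. On day 4 it read 344, 308 and 327 under formula and hypoxia, against 604, 855 and 533 in breast-fed pups. The regimens did not overlap on these days (2.27% of probe sets lay lower without overlap on at least 3 of the 4 days), nor on day 3 (238, 338 and 229 under formula and hypoxia, against 612, 341 and 616 in breast-fed pups). They overlapped on day 1 (150, 207 and 343 under formula and hypoxia, against 447, 252 and 301 in breast-fed pups). Over the 4 days this probe set was 2.01-fold lower (1.59 to 2.53; adjusted p = 0.000201), and it was also called on day 2 alone, at -1.60 ± 0.32 (adjusted p = 0.0117). In the first accession run alone its change was -1.01 (adjusted p = 0.0073). The last one, AA685903_at, had a change of -0.89 (adjusted p = 0.059), and of -1.03 without the 2 arrays with lost probe sets (adjusted p = 0.0363).

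Calreticulin and calnexin are the lectin chaperones, which bind newly made glycoproteins through their sugars. Calreticulin, from Calr, is soluble and also binds calcium, and calnexin, from Canx, is its membrane-bound counterpart. The main Calr probe set, D78308_at, read 619, 542 and 896 on day 1 under formula and hypoxia, against 1040, 1240 and 696 in breast-fed pups. On day 2 it read 905, 996 and 955 under formula and hypoxia, against 1600, 1810 and 1050 in breast-fed pups. Day 2 was the only day without overlap, as for 10.5% of genes in this direction. All 12 formula and hypoxia pups lay below the breast-fed mean of their day, which held for 2.83% of genes. The 4-day log2 change was -0.42 ± 0.15 (95% interval -0.74 to -0.11) and missed the threshold (adjusted p = 0.0771). With the arrays as scaled by the authors it was -0.48 and passed (adjusted p = 0.0461), with arrays scaled to a common median it was -0.59 (adjusted p = 0.00807) and with array weights -0.40 (adjusted p = 0.0325). The other 9 alternatives left it uncalled, with the weakest value, -0.29, where the accession run was a term (adjusted p = 0.333).

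A further Calr probe set, D78308_g_at, fell 2.07-fold over the 4 days (1.65 to 2.61; log2 change -1.05 ± 0.16, adjusted p = 0.000113). Its intensity was 234 ± 77.5 under formula and hypoxia and 483 ± 113 with breast feeding (SD, n = 12 each). The day 2 values were 137, 221 and 220 under formula and hypoxia, against 611, 490 and 440 in breast-fed pups (log2 change -1.39, adjusted p = 0.0314). Its regimens overlapped on day 3 alone, through 1 formula and hypoxia pup at 416, so it too is among the 2.27%. In the first accession run alone its change was -0.97 (adjusted p = 0.00825). The last Calr probe set, X53363cds_s_at, had lost its signal in both arrays that stood apart (5.29 and 10.9 in breast-fed day 3 replicate 3 and day 4 replicate 2). Its log2 change was -0.25 with them (adjusted p = 0.808) and -0.98 without them (adjusted p = 0.0522).

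Canx had 5 probe sets above the filter, and none was called. The main one, rc_AI010725_g_at, had 564 ± 284 under formula and hypoxia and 650 ± 405 with breast feeding (SD, n = 12 each). Its log2 change was 0.10 ± 0.48 (95% interval -0.88 to 1.09, adjusted p = 0.924) and turned to -0.43 without the 2 arrays (adjusted p = 0.327). On day 4 it read 701, 787 and 820 under formula and hypoxia, against 1160, 9.24 and 1260 in breast-fed pups. The low value comes from the array with lost probe sets, and the other breast-fed values of that day lay above all 3 formula and hypoxia values. Changes of the other 4 probe sets ran from -0.74 to 0.08. The lowest of them, rc_AA893328_at, had an adjusted p of 0.0663 with all arrays and 0.0451 without the 2.

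**Figure D3:**
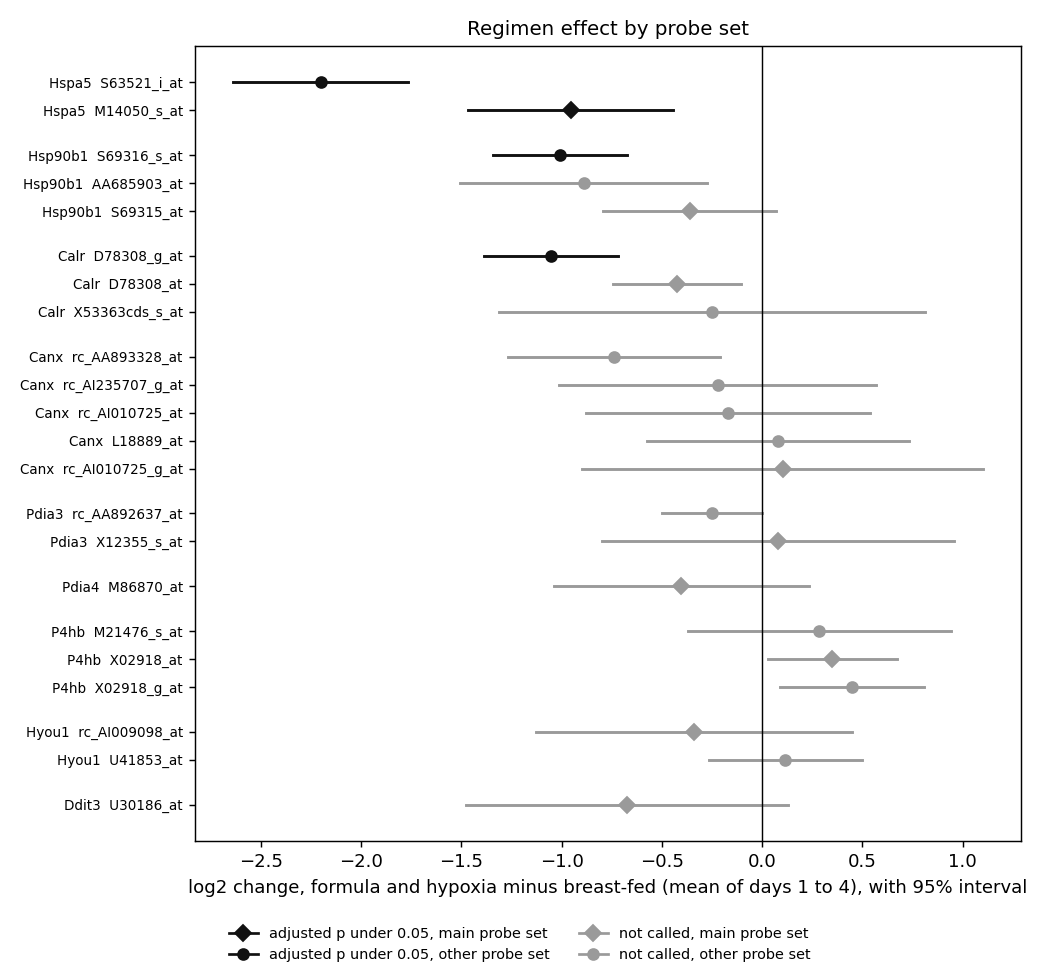
Log2 change (horizontal axis, formula and hypoxia minus breast-fed, mean of days 1 to 4) with its 95% interval for the 22 member probe sets above the filter, grouped by gene; diamonds are main probe sets, circles the others, black those with adjusted p under 0.05 and grey the rest. The 4 black probe sets belong to Hspa5, Hsp90b1 and Calr and lie between -2.20 and -0.95, and the 3 P4hb probe sets lie to the right of 0.

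Counted by probe set, 4 of the 22 above the filter fell and 0 rose over the 4 days, where 10.5% of all 5244 probe sets were called and 6.56% were called lower. In these, 2 probe sets of Hspa5 and 1 each of Hsp90b1 and Calr were called. The median log2 change of the 22 was -0.29, against 0.02 for all probe sets, and 15 of the 22 were negative. On days 1, 2, 3 and 4 alone, 1, 3, 1 and 1 of the 22 fell and 0 rose, where 0.172%, 1.11%, 1.83% and 1.75% of all probe sets were called. On day 4 against day 1 of formula and hypoxia, 1 of the 22 (Calr D78308_at) rose by a log2 change of 0.97 (limma adjusted p = 0.0458), where 10.6% were called. Probe sets of a gene share its transcript and are no independent measurements of it.

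**Figure D4:**
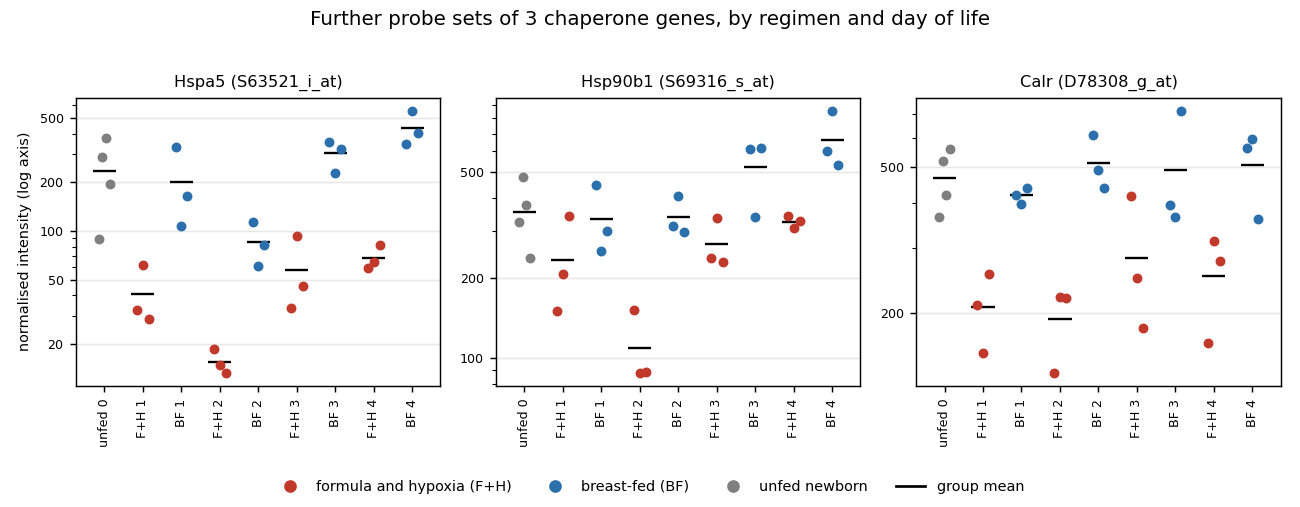
Normalised intensity (log axis) of 1 further probe set each of Hspa5, Hsp90b1 and Calr in the 28 arrays by group, with unfed newborns on the left and formula and hypoxia (F+H) left of breast-fed (BF) on each day; points are pups and black lines group means. The Hspa5 probe set has no overlap between the regimens on any day, and those of Hsp90b1 and Calr have none on 3 of the 4 days, which held for 2.27% of probe sets on at least 3 days.

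Among the disulfide isomerases, Pdia3 encodes ERp57, which works with calreticulin and calnexin. Its main probe set, X12355_s_at, read 370, 357 and 484 on day 1 under formula and hypoxia, against 734, 505 and 514 in breast-fed pups. On day 4 it read 1320, 776 and 1020 under formula and hypoxia, against 1660, 1560 and 1600 in breast-fed pups. The regimens did not overlap on these days, as for 6.31% of genes on day 1 and 12.8% on day 4 in this direction. On day 3 it read 779, 1110 and 799 under formula and hypoxia, against 1220, 686 and 8.27 in breast-fed pups. With the lost value of day 3 included, the 4-day log2 change was 0.08 ± 0.42 (95% interval -0.79 to 0.95, adjusted p = 0.933). Without the 2 arrays it was -0.41 (adjusted p = 0.136). The dimmer probe set rc_AA892637_at had a change of -0.25 (adjusted p = 0.195).

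Pdia4 encodes ERp72, another isomerase of the compartment, and had a single probe set, M86870_at. On day 2 it read 138, 105 and 97.2 under formula and hypoxia, against 229, 194 and 285 in breast-fed pups, without overlap (10.5% of genes in this direction). On day 4 it read 142, 94.7 and 247 under formula and hypoxia, against 295, 16.8 and 254 in breast-fed pups. The value of 16.8 comes from breast-fed day 4 replicate 2. Over the 4 days the change was -0.40 ± 0.30 with all arrays (95% interval -1.03 to 0.22, adjusted p = 0.426), and -0.82 without the 2 that stood apart (adjusted p = 0.00458). Leaving out breast-fed day 4 replicate 2 alone gave -0.69 (adjusted p = 0.0292), and the first accession run alone gave -0.84 (adjusted p = 0.0138). Leaving out breast-fed day 4 replicate 1 gave -0.24 (adjusted p = 0.626).

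P4hb encodes protein disulfide isomerase, which also serves as a subunit of collagen prolyl 4-hydroxylase. It was the only member whose main probe set, X02918_at, had 11 of 12 formula and hypoxia pups above the breast-fed mean of their day (7.38% of genes had at least 11 above). The day 2 values were 3880, 2910 and 3050 under formula and hypoxia, against 1700, 2680 and 2360 in breast-fed pups, without overlap (10.9% of genes in this direction). Overlap was present on each other day. The 4-day mean was 3310 ± 494 under formula and hypoxia and 2640 ± 623 with breast feeding (SD, n = 12 each). Its log2 change of 0.35 ± 0.16 (95% interval 0.03 to 0.67) did not pass after adjustment (adjusted p = 0.148), and passed only with array weights, at 0.43 (adjusted p = 0.0173), among the 12 alternatives. The other P4hb probe sets had changes of 0.45 (X02918_g_at, adjusted p = 0.104) and 0.28 (M21476_s_at, adjusted p = 0.618). Without the 2 arrays the first of these was 0.56 (adjusted p = 0.0385).

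Hyou1 encodes GRP170, which exchanges nucleotide on BiP. Its main probe set, rc_AI009098_at, was dim. On day 1 it read 16.1, 18.3 and 16.8 under formula and hypoxia, against 83.5, 23.7 and 11.8 in breast-fed pups. On day 2 it read 17.9, 18.0 and 11.2 under formula and hypoxia, against 56.5, 36.3 and 50.7 in breast-fed pups. On day 4 the values were 73.4, 76.3 and 81.3 under formula and hypoxia, against 191, 6.40 and 85.6 in breast-fed pups. Only day 2 was free of overlap, as for 10.5% of genes in this direction. The 4-day log2 change was -0.34 ± 0.38 (95% interval -1.12 to 0.44, adjusted p = 0.6), -0.88 without the 2 arrays (adjusted p = 0.0166) and -0.98 in the first accession run alone (adjusted p = 0.0439). Leaving out 1 array gave -0.61 (breast-fed day 3 replicate 3) to -0.13 (breast-fed day 4 replicate 1), with adjusted p-values from 0.233 to 0.848. The other Hyou1 probe set, U41853_at, had a change of 0.12 (adjusted p = 0.747), so the 2 probe sets differed in sign.

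Ddit3, the CHOP gene, was read by a single dim probe set, U30186_at. Under formula and hypoxia its lowest, median and highest values were 4.54, 78.6 and 118 over 12 pups, against 23.5, 102 and 198 in breast-fed pups. The ranges overlapped, and unfed newborns had 71.3, 40.4, 106 and 382. The log2 change was -0.67 ± 0.39 (95% interval -1.47 to 0.12, adjusted p = 0.272). Without formula and hypoxia day 1 replicate 3, which gave the value of 4.54, it was -0.41 (95% interval -1.12 to 0.29, adjusted p = 0.48). On day 4 the pups under formula and hypoxia, at 79.9, 24.6 and 77.2, lay below breast-fed pups at 93.5, 148 and 97, as for 12.8% of genes. That day was not called (log2 change -0.92, limma adjusted p = 0.644). No increase of this stress-induced transcript was detectable with these arrays. The interval of the 4-day mean allows a rise of up to 1.09-fold with all arrays and up to 1.22-fold without formula and hypoxia day 1 replicate 3. Single days are less well bounded, with upper limits of 1.83-, 2.04-, 2.15- and 1.59-fold on days 1 to 4 with all arrays. Without that replicate the day 1 log2 change was 0.32, with an upper limit of 3.61-fold.

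Over the 9 main probe sets, 1 member was called lower and 0 higher, and 3 members had an unadjusted p under 0.05 (Hspa5, Calr and P4hb), as had 26.8% of all genes. The median log2 change of the members was -0.36, against 0.02 for all genes, with 6 negative and 3 positive. On single days 0 members were called, where 0.283%, 1.48%, 2.01% and 1.98% of genes were called on days 1 to 4. The number of members with an unadjusted p under 0.05 was 0, 1, 1 and 1 (Hspa5 on days 2 and 4, and Pdia3, with its lost breast-fed value, on day 3), where 9.14%, 10.2%, 16.6% and 15% of genes had one. Member medians were -0.52, -0.60, -0.27 and -0.31 on the 4 days, against 0.06, 0.01, -0.01 and 0.01 for all genes. Day 2 had the most members without overlap: Hsp90b1, Calr, Pdia4 and Hyou1 lay lower, as 10.5% of genes did, and P4hb lay higher. An F test for any difference between the daily effects called 0 members (0.0942% of genes), and 0 members had an unadjusted p under 0.05 (7.41% of genes).

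Whether the chaperone genes moved after birth was asked by setting day 1 against unfed newborns. Formula and hypoxia day 1 gave 0 members called (0.408% of genes called; 1 member, Calr, at an unadjusted p under 0.05, as 9.98% of genes). The values of 7 members were negative, from -1.11 for Hyou1 to -0.01 for Canx, with a median of -0.64 against 0.05 for all genes. Ddit3 among them was at -1.11 with all arrays and -0.07 without its lost value. The other Hyou1 probe set, U41853_at, had a mean of 45.5 on day 1 of formula and hypoxia and 43.2 in unfed newborns. In the probe set fit, Hspa5 S63521_i_at was 4.63-fold lower on day 1 of formula and hypoxia than in unfed newborns (2.62 to 8.16, adjusted p = 0.0101), in a comparison that called 0.172% of probe sets. The same probe set had a change of -0.20 in breast-fed pups (adjusted p = 0.994). Breast-fed day 1 gave 0 members called, and 0% of genes, with a member median of 0.14 and 0 members at an unadjusted p under 0.05 (5.84% of genes). Both comparisons use the same unfed arrays.

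Between day 1 and day 4 the main probe sets of all 9 members had positive values under formula and hypoxia, with a median of 0.57 against -0.00 for all genes. The sign of Ddit3 rests on its lost day 1 value, with 0.23 with all arrays and -0.81 without that array. The main Calr probe set, D78308_at, rose: 1370, 1250 and 1340 on day 4, against 619, 542 and 896 on day 1, a 1.96-fold increase (1.26 to 3.04; log2 change 0.97 ± 0.31, adjusted p = 0.0375). It was the only 1 of the 9 called, where 13.4% of genes were called. With the deposited scaling its change was 0.92 (adjusted p = 0.0533), with a common median 0.71 (0.105) and with the accession run as a term 0.83 (0.0801). Leaving out formula and hypoxia day 1 replicate 1 or 2 or any day 4 replicate also ended the call (adjusted p up to 0.133). The further Calr probe sets were not called. Their formula and hypoxia means on day 1 and day 4 were 207 and 252 (D78308_g_at) and 268 and 231 (X53363cds_s_at). Hyou1 had the largest value, 1.76 ± 0.76 (adjusted p = 0.126), followed by Pdia3 at 1.33 ± 0.84 (adjusted p = 0.324). Without the 2 arrays with lost probe sets both passed (adjusted p = 0.00956 for Hyou1 and 0.00705 for Pdia3). The other probe set of each had a lower mean on day 4 than on day 1, and neither was called with all arrays. For Hyou1 U41853_at the means were 22.1 on day 4 and 45.5 on day 1, and for Pdia3 rc_AA892637_at 26.7 and 30.6. In breast-fed pups 0 members were called between day 4 and day 1 (0.314% of genes), and 2, Hspa5 and Calr, had an unadjusted p under 0.05, as had 17% of genes. Their changes were 1.17 ± 0.49 for Hspa5 (adjusted p = 0.234) and 0.76 ± 0.31 for Calr (adjusted p = 0.227), and the member median was 0.55. Day 1 arrays of each regimen also enter the day 1 regimen comparison.

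**Figure D5:**
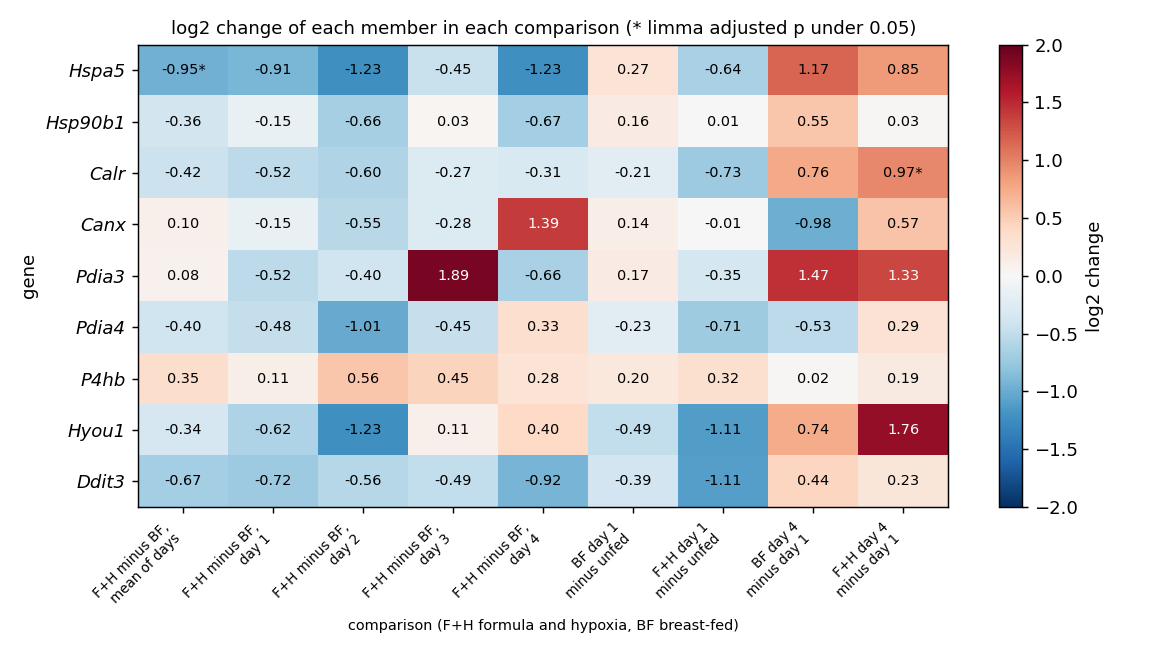
Log2 change of the main probe set of each member (rows) in each of 9 comparisons (columns), coloured blue for negative and red for positive; stars mark limma adjusted p under 0.05. Hspa5 over the 4 days (-0.95) and Calr from day 1 to day 4 under formula and hypoxia (0.97) carry stars, and P4hb is positive in every column.

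Since members differed in sign, the effect on Hspa5 was set against the effect on each other member. The difference of log2 values, Hspa5 minus the other gene, was compared between the regimens by an exact two-sided permutation test that exchanged arrays between regimens of the same day (160000 arrangements, n = 12 each). These 8 tests were chosen after the values had been seen. On the main probe sets used here Hspa5 had the lowest change of all members, so every difference had to be negative. The p-values do not allow for this choice. Further probe sets had changes of -2.20 for Hspa5 (S63521_i_at), -1.05 for Calr (D78308_g_at) and -1.01 for Hsp90b1 (S69316_s_at) with all arrays. The differences from Calr and Hsp90b1 thus depend on which probe set stands for each gene. Hspa5 was lower relative to P4hb by -1.31 (exact p = 0.00146, adjusted over the 8 tests 0.0062). Relative to Pdia3 the difference was -1.04 (exact p = 0.00155, adjusted 0.0062). Against the other 6 members, differences ran from -1.06 to -0.28 and did not pass (adjusted exact p from 0.151 to 0.444). Without the 2 arrays with lost probe sets, the difference from P4hb was -1.50 (adjusted exact permutation p = 0.001) and that from Pdia3 was -0.67 (0.0173). Hsp90b1, Calr and Canx then passed as well, at -0.81, -0.66 and -0.65 (adjusted exact p = 0.034, 0.0478 and 0.0478). Differences from Pdia4, Hyou1 and Ddit3 did not (0.405 to 0.567).

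Likeness to Hspa5 was ranked by Spearman correlation over the 28 arrays, which share groups, ages and tissue makeup, so the values are descriptions. The 5 other genes most like it were Pdia6 (0.87), another disulfide isomerase of the endoplasmic reticulum, Stip1 (0.80), a co-chaperone of cytosolic Hsp70 and Hsp90, Pawr (0.75), Basp1 (0.75) and Parp1 (0.73). Pdia6 had a regimen change of -0.06 with all arrays (adjusted p = 0.955) and -0.63 without the 2 with lost probe sets (adjusted p = 0.00309). Among the members, Pdia3 was most like Hspa5 (0.72, rank 6 of 3184 genes), followed by Hyou1 (0.54), Ddit3 (0.48), Calr (0.46), Canx (0.44) and Pdia4 (0.43). Hsp90b1 had 0.20 and P4hb -0.26. The median over all genes was -0.03. Over the 36 member pairs the correlation was positive in 29, with a median of 0.31, and lowest between P4hb and Ddit3 (-0.70). With group means taken out, the correlation with Hspa5 was 0.50 for Pdia3, 0.33 for Ddit3 and 0.25 for both Hyou1 and Pdia4. It was 0.13 for Canx, 0.07 for Hsp90b1, -0.15 for P4hb and -0.16 for Calr.

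Further genes of the compartment gave context. Of 19 other folding and quality control genes tested, 3 fell over the 4 days and 0 rose, with a median of -0.14, where 6.75% of all genes fell and 4.68% rose. Without the 2 arrays with lost probe sets 5 fell, where 5.4% of all genes did. Serpinh1, the collagen chaperone, was at -0.89 ± 0.15 (adjusted p = 0.000236) and was also lower on day 1 (-1.38, adjusted p = 0.0391) and day 2 (-1.73, adjusted p = 0.00275). Ero1b, an oxidase that recharges disulfide isomerases, was at -0.63 ± 0.12 (adjusted p = 0.00107). P4ha1, the catalytic subunit that pairs with the P4hb product in prolyl 4-hydroxylase, was at -0.56 ± 0.15 (adjusted p = 0.0132), while P4hb itself was at 0.35. That P4ha1 call was lost with the deposited scaling (adjusted p = 0.0601), with the accession run as a term (0.0983) and in the first accession run alone (0.113).

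Of 15 signalling and target genes of the unfolded protein response, 2 rose and 0 fell, with a median of 0.06, where 4.68% of all genes rose. They were the stress-induced transcription factor genes Atf3 (0.56 ± 0.14, adjusted p = 0.0101) and Cebpb (0.60 ± 0.16, adjusted p = 0.017). Atf3 did not pass with the accession run as a term (0.0538) or in the first run alone (0.256), nor Cebpb with arrays scaled to a common median (0.126) or in the first run alone (0.122). Of 19 translocation, glycosylation and export genes, Sec62, of the translocation channel, fell (-0.73 ± 0.14, adjusted p = 0.000961) and 0 rose, with a median of -0.17, where 6.75% of all genes fell. Between day 4 and day 1 of formula and hypoxia, Serpinh1 (1.81), Nucb1 (1.66), Atp2a2 (1.90), Atp2a3 (1.39), Cebpb (1.67) and Ppp1r15a (0.79) rose, while Rcn1 (-0.91), Dad1 (-0.78) and Sec11a (-0.92) fell. That made 3 of the 19 folding genes, 2 of the 15 response genes and 4 of the 19 translocation and export genes, where 13.4% of all genes were called. Atp2a2, a calcium pump of the reticulum, also rose in breast-fed pups, by 1.79 (adjusted p = 0.0296). On day 1 of formula and hypoxia Serpinh1 was lower than in unfed newborns (-1.96, adjusted p = 0.000578).

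ERSE or ERSE-II was also present before the start of 4 tested genes outside the members. Ero1b (-0.63) and Hnrnpa3 (-0.45, adjusted p = 0.0441) fell, and Prkcz (-0.06) and Nucb1 (0.29) did not pass, where 6.75% of all genes fell. Of the 5 members with ERSE or ERSE-II, Hspa5 alone was called on its main probe set. Hsp90b1 and Calr were called only on a further one, where 6.56% of all probe sets were called lower. Canx and Hyou1 were called on no probe set with all arrays. A match says only that the letters are present, and copies with a changed letter were not searched for.

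Some markers of secretory, stromal and immune cells moved with the regimen over the 4 days, where 6.75% of all genes fell and 4.68% rose. Among 5 goblet and Paneth cell markers tested, Muc2 (-1.08, adjusted p = 0.0049) and Tff3 (-0.69, adjusted p = 0.00433), both of goblet cells, fell, while Defa5 (0.14), Lyz2 (0.04) and Reg3b (0.49) were not called and the list median was 0.04. The summed level of the list on the array was 2730 to 6630 under formula and hypoxia, against 4960 to 8300 in breast-fed pups. Such sums weigh the brightest probe set of a list most, here Tff3 with a mean intensity of 4310. In the sums below, Ctss (1920) does so among macrophage and granulocyte markers and Serpina1 (848) among liver markers. Tff3 did not pass with the deposited scaling (0.0505) or a common median (0.0562). Of 8 fibroblast markers 3 fell, Lum (-1.54), Postn (-1.44) and Dcn (-0.85), with sums of 2030 to 6030 under formula and hypoxia, against 3750 to 8440 in breast-fed pups. Dcn was not called without the 2 arrays (adjusted p = 0.113), with the accession run as a term (0.0895) or in the first run alone (0.096). Of 7 macrophage and granulocyte markers Ctss (-0.82, adjusted p = 0.000363), Cd53 (-0.96, adjusted p = 0.00436) and Coro1a (-1.13, adjusted p = 0.00129) fell and S100a9 rose (0.71, adjusted p = 0.0184), with a median of 0.04 and sums of 1460 to 2950 under formula and hypoxia, against 2460 to 4020 in breast-fed pups. Of these, 3 fell and 1 rose without the 2 arrays, and with the accession run as a term or in the first run alone 3 fell and 0 rose. Of 8 smooth muscle markers Myl9 fell (-0.50, adjusted p = 0.0279), and 0 were called without the 2 arrays, with the run as a term, with the deposited scaling or with a common median. Their sums were 7460 to 18000 under formula and hypoxia, against 9370 to 17200 in breast-fed pups. Of 3 liver markers 0 were called, with sums of 821 to 1810 under formula and hypoxia, against 756 to 1090 in breast-fed pups. Enterocyte markers had 0 of 10 called (1 higher without the 2 arrays) and sums of 18200 to 33100 under formula and hypoxia, against 17700 to 28700 in breast-fed pups. The exocrine pancreas, rich in these chaperones, was represented by 5 tested markers, of which Prss1 rose (0.55, adjusted p = 0.0214; 0 called without the 2 arrays). Prss2, Cpa1, Cpb1, Amy2a3, Ctrb1 and Cel lay under the filter. Its sums were 616 to 1600 under formula and hypoxia, against 699 to 1390 in breast-fed pups. Plasma and B cells were represented by Cd79b alone (8.38 to 64.5 under formula and hypoxia, against 8.69 to 51.3 in breast-fed pups). In whole tissue, fewer cells of a type and less RNA per cell cannot be told apart, and the part of these cell types in the Hspa5, Hsp90b1 and Calr changes was not tested.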

How the data were processed

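Total RNA of terminal ileum from 28 rat pups was measured on 28 Affymetrix arrays in 9 groups taken from the sample titles and descriptions. The deposited values are linear probe set intensities (0.000562 to 22483); how they were summarised and with which software is not given in the sources used here. From the values, the authors had scaled 26 arrays to a 2% trimmed mean of about 150 (150.2 to 150.5), while breast-fed day 1 replicate 2 had 109.2 and breast-fed day 4 replicate 1 had 209.2. No 2 arrays were identical.

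The intensities were quantile normalised, 8 was added and log2 was taken. Of 8799 probe sets, 59 controls were left out, and those with a mean above the 40th percentile (an intensity of 24.0) were kept, 5244 in all. Of the 8740 probe sets, 7006 had 1 gene symbol in the platform annotation, 308 several and 1426 none. The probe set with the highest mean stood for each gene (3185 tested), and a second fit tested each probe set. limma 3.58.1 in R 4.3.3 fitted 1 mean per group (19 residual degrees of freedom, trended empirical Bayes) with Benjamini-Hochberg adjustment over all genes or probe sets; the test was checked on simulated data. The number of arrays limits the precision.

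All 9 members were named with every probe set, and of each pathway list the called genes, up to 6 for the 4-day mean and up to 4 for each other comparison, with the 5 genes most like Hspa5. The members and lists were chosen with earlier results of these data known. Scaling, pseudocount, filter, array weights, left-out arrays, accession run and replicate block were varied. The fits of single probe sets under these settings, of the second run alone and of Ddit3 without its lost array were added after seeing the data. Replicate numbers of different groups did not pair the arrays (median correlation of same-numbered deviations -0.00228). Promoters were searched with Python 3.11.15.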

Additional observations from a re-analysis of the deposited data

Results flagged for a closer look

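In the 4 unfed newborns, 2 of the 23 member probe sets had 1 array far from the rest by Dixon's test, and chance flags about 1 in 20 groups. Both concern unfed replicate 2. Hsp90b1 (S69315_at) read 891 there, against 371 to 425 in the other unfed pups (ratio of gap to range 0.895). P4hb (X02918_at) read 4700, against 1630 to 2100 in the others (ratio 0.846). This array belongs to the second accession run, as do unfed replicates 3 and 4, and the part of the run in these values was not tested.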

How the results depend on the processing

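The Hspa5 decrease over days 1 to 4 kept its direction and its call in all 12 alternatives (-1.24 to -0.92) and all 28 fits without 1 array (-1.12 to -0.81), with adjusted p up to 0.0267. The number of members called for that comparison was 1 in the reported fit, where 364 of 3185 genes were called. Deposited scaling gave 2 (282 of 3187 genes) and a common median 2 (334 of 3187 genes). Array weights gave 4, with 3 lower and P4hb higher (593 of 3185 genes). The number was 3 without the 2 arrays with lost probe sets (312 of 3187 genes) and in the first accession run alone (171 of 3195 genes). Without 1 replicate it was 1 to 2, reaching 2 without breast-fed day 4 replicate 2 (Pdia4, 311 genes called) or unfed replicate 2 (Calr, 400 genes called). With array weights, day 2 and day 4 had 1 member each (Hspa5), where the reported fit called 1.48% and 1.98% of genes. Without 1 replicate, day 3 had 0 to 1 (1 without breast-fed day 3 replicate 1), as had breast-fed day 4 minus day 1 (1 without breast-fed day 3 replicate 3). For formula and hypoxia day 4 minus day 1 the count was 1, where the reported fit called 13.4% of genes. This count became 0 with the deposited scaling, a common median or the accession run as a term. It was 2 with array weights, 3 without the 2 arrays and 3 in the first run alone. Without 1 replicate it was 0 to 2. Shares of all genes under the other settings are not given here for single days or for day 4 minus day 1.

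Canx changed sign from 0.10 to -0.0467 with array weights, -0.43 without the 2 arrays and -0.42 in the first run (-0.41 to 0.37 without 1 replicate). Pdia3 changed sign from 0.08 to -0.0423 with a common median, -0.0111 with a pseudocount of 32, -0.28 with array weights, -0.41 without the 2 arrays, -0.30 with the run as a term and -0.35 in the first run (-0.40 to 0.38 without 1 replicate). Leaving out the array with the lost value alone turned each sign; the cause of the other changes was not tested.

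Over all genes, 364 were called for the 4-day mean, against 593 with array weights, 203 with the run as a term and 171 in the first run. The split of 149 higher and 215 lower became 90 and 244 with a common median. With the replicate number as a block, 1 member and 339 genes were called, and no other member call changed. The first run gives no breast-fed day 4 comparison and the second only those of day 4. The 60th percentile filter left 8 members, without Hyou1. Probe sets dimmer than an intensity of 24 and groups of 3 arrays limit what could be seen on single days.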
